A study of Mus musculus with 157 samples.

Results

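Trp53, the gene of the mouse p53 protein, was followed together with 6 genes whose products act directly on p53: Mdm2, Mdm4, Ppm1d, Ppp1r13l, Ppp1r13b and Trp53bp2. These 7 genes were taken from the 19600 genes of the count table by gene name. Each name matched 1 row, and all 7 genes passed the filter on low counts in every comparison of summed counts.

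p53 is a transcription factor that is held at low amounts in undisturbed cells and accumulates after DNA damage. Mdm2 is the ubiquitin ligase that marks p53 for degradation, and Mdm4 is its partner, which binds p53 and masks its activation domain. Ppm1d encodes the phosphatase Wip1, which removes the phosphates that damage kinases such as ATM place on p53 and on other proteins. The 3 ASPP genes encode proteins that bind p53 and tune its choice of targets, with Ppp1r13l (iASPP) acting as an inhibitor and Ppp1r13b (ASPP1) and Trp53bp2 (ASPP2) as activators. Mdm2 and Ppm1d are textbook p53 target genes, so that p53 raises the production of its own inhibitors. The rate at which p53 mRNA is translated is a further layer of control, and the study asked how DNA damage moves mRNAs between ribosome fractions in activated B cells.

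Splenic B cells of C57BL/6Babr mice, isolated with a magnetic cell kit, were used in all groups, and all cells were activated with the bacterial mitogen LPS at 10 µg/ml. The LPS group received LPS alone for 48 hours. The LPS+ET group received in addition etoposide, a topoisomerase II poison that causes DNA double-strand breaks, at 20 µM for 4 hours. The LPS+ET+KU group received LPS for 47 hours and then KU55933, an inhibitor of the kinase ATM, at 10 µM for 1 hour before etoposide at 20 µM for 4 hours. No group received KU55933 without etoposide, and the sources used here do not say whether the LPS cells were collected at the start or at the end of the etoposide treatment, so that added hours in culture and etoposide cannot be told apart. Elongating ribosomes were held on the mRNA with cycloheximide, cytoplasmic extracts were spun through sucrose gradients, and the 3′ ends of polyadenylated RNA were counted in each fraction. Monosomes stand here for fractions 4 to 7, light polysomes for 8 to 10 and heavy polysomes, with the most ribosomes per mRNA, for 11 to 16.

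Each group held 4 gradients of 13 fractions, which gave 156 libraries in 4 library pools named LUL15, LUL16, LUL17 and LUL18, each with 1 gradient of every treatment. Library totals ran from 14724 to 4170688 counts with a median of 811932, and gradient totals from 6404957 to 21449781 counts. Of the 156 libraries, 12 held under 100000 counts, and 4 of these were heavy polysome fractions of the LPS+ET gradient of pool LUL16. That gradient stood apart: monosomes made up 29% of its counts against 10.8 to 13.0% in the other LPS+ET gradients, and heavy polysomes made up 30.4%. Monosomes took 13.7 to 17.6% of the counts of LPS gradients and 28.4 to 34.03% of those of LPS+ET+KU gradients. All 8 B cell markers on the list were counted, with a summed level of 39668 to 140163 CPM (counts scaled to the library total) per gradient. Igkc and Ighm made up most of this sum, and Pax5 averaged only 1.4 CPM with LPS, 0.5 with LPS+ET and 0.9 with LPS+ET+KU. The T cell markers summed to at most 2.58 CPM and the erythroid markers to 0.449. The table held none of the 3 NK cell markers. The 6 myeloid markers summed to 31.03 to 85.4 CPM in LPS, 45.4 to 160 in LPS+ET and 29.8 to 120 in LPS+ET+KU, and the 4 plasma cell markers to 217 to 412, 175 to 963 and 96.8 to 565, so that the ranges of each list overlapped and no marker of either list was at 0 in any treatment.

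The counts of each gene came from polyadenylation sites, and the bases just before these sites show which 3′ end of each mRNA was measured. Below, the 30 bases that end at the counted site are given 5′ to 3′ on the gene's strand from GENCODE M21 coordinates of build GRCm38, with the polyadenylation hexamers AATAAA and ATTAAA in capitals (for Trp53, the longest run of T).
Trp53: tccctcTTTTTTTTTTTTTTaccccttttt
Mdm2: aAATAAAtggtttattgaagaattgtgaaa
Mdm4: tttttgtgtgATTAAAcagttttcatttca
Ppm1d: aggggataaAATAAAgagaatacagtttga
Ppp1r13l: ttcctttataAATAAAggttgtttacccag
Ppp1r13b: cgtgcacAATAAActgctgtctcacacctg
Trp53bp2: ttgtAATAAAATTAAActttatgactccaa

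All 7 sites lay in the last exon, in the 3′UTR. For Trp53 (ENSMUSG00000059552, chromosome 11, 69580359 to 69591873, plus strand), the window chr11:69591800-69591829 held neither hexamer, and the first AATAAA started 23 bases past the site, within the 43 bases that remained of the annotated exon 11. Its run of 14 T was matched or exceeded in 0.279% of the windows of the same length at 12560 counted sites, while 69.99% of these windows held AATAAA or ATTAAA. Mdm2 (ENSMUSG00000020184, minus strand) was counted at chr10:117688892-117688921 in exon 12, and Mdm4 (ENSMUSG00000054387, minus strand) at chr1:132986220-132986249, the end of its longest annotated 3′UTR. Ppm1d (ENSMUSG00000020525, plus strand) had 3 sites on chromosome 11, of which 85346300 took 4462 counts, 85347066 took 1261 and 85346596 took 229. The 3 sites were summed, and the window shown belongs to the first. Ppp1r13l (ENSMUSG00000040734) was counted on chromosome 7 at 19378536, 3 bases past its annotated end, so that its window chr7:19378504-19378533 closes at that end. Ppp1r13b (ENSMUSG00000021285) was counted on chromosome 12 at 111828458 and Trp53bp2 (ENSMUSG00000026510) on chromosome 1 at 182462432. A processed Trp53 pseudogene in the table, Trp53-ps, held 194 counts in all, against 51913 for Trp53.

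Because members of this circuit are themselves p53 targets, the 300-base promoters given by RefSeq for build GRCm38.p6 (250 bases before to 50 after the gene start) were searched on both strands for the p53 half-site consensus. A match was present for 3 of the 7 genes, and 8.36% of 32851 mouse promoters held one. The stretches below show the matches in capitals, on the gene's strand.
Trp53 (chr11:69580259-69580318): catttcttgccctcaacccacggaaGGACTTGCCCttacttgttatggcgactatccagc
Mdm2 (chr10:117710910-117710969): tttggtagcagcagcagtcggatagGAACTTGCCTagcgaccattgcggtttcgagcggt
Ppm1d (chr11:85311097-85311156): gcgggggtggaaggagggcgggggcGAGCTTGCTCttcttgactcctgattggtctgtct

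The matches began at -75 for Trp53, -186 for Mdm2 and -132 for Ppm1d relative to the gene start. A match describes letters only. Of the 3 genes whose summed level rose with etoposide, given below, Mdm2 and Ppm1d had a match and Ppp1r13l had none. Trp53 had a match, and its level was not called. The searched window of Ppp1r13l (chr7:19360966-19361265) lay inside the gene locus given with its counts, which starts at 19359749, so that this start was not searched.

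The level of ribosome-associated mRNA was compared first, with the counts of fractions 4 to 16 summed per gradient. Etoposide raised Mdm2 5.27-fold, Ppm1d 4.38-fold and Ppp1r13l 23.5-fold, genes of negative regulators of p53, while Trp53 itself was 1.39-fold higher without passing the test. Under ATM inhibition Ppm1d and Ppp1r13l were lower than with etoposide alone, and Mdm2, Ppm1d and Ppp1r13l were still above the LPS level. The calls of Ppm1d and Ppp1r13l as lower depended on the fit. When only the LPS+ET and LPS+ET+KU gradients were fitted, edgeR called no gene. With equal weight per fraction in place of summed counts, 1 of the 7 genes was called, so that these calls did not both hold. The gradients of 1 pool deviated together, and a fit with the pool as a replicate block also called Mdm4 and the activator Trp53bp2 as higher with etoposide, and Mdm2 and Mdm4 as lower under ATM inhibition. A gene was called where edgeR's quasi-likelihood test gave an adjusted p (Benjamini-Hochberg, over all genes) below 0.01. Between LPS+ET and LPS this took in 3 of the 7, all higher, and 12.7% of 12755 genes tested. Between LPS+ET+KU and LPS+ET it took in 2 of the 7, both lower, and 0.455% of all genes, and between LPS+ET+KU and LPS 3 of the 7, all higher, and 10.7% of all genes. With the replicate block it took in 5, 4 and 3 of the 7 in these comparisons, and 26.7%, 6.36% and 28.1% of all genes, and DESeq2 called 18.4%, 3.24% and 18.2% of all genes. These comparisons share gradients and are not independent of each other. In bulk RNA, fewer cells that hold an mRNA and less mRNA per cell cannot be told apart.

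One plasma cell marker, Sdc1, moved with the treatments in the same fit. It was at 6.19, 7.501, 4.08 and 4.06 CPM with LPS, 82.7, 55.1, 40.6 and 57.96 with LPS+ET, and 24.3, 12.2, 12.3 and 13.7 with LPS+ET+KU. The log2 difference was 3.42 ± 0.32 (edgeR adjusted p = 7.91e-06) with etoposide, -1.93 ± 0.29 (edgeR adjusted p = 0.0057) between LPS+ET+KU and LPS+ET, and 1.496 ± 0.30 (edgeR adjusted p = 0.00352) between LPS+ET+KU and LPS. The other 3 plasma cell markers, Xbp1, Prdm1 and Igj, were not called in any of these comparisons, and Igj was at 62.3 to 660 CPM with LPS+ET against 86.4 to 223 with LPS. Among the myeloid markers Cd14 was higher with LPS+ET+KU than with LPS (log2 difference 3.83, edgeR adjusted p = 2.48e-04), and with the replicate block Cd14 was called in the other comparisons as well and Prdm1 as lower with LPS+ET+KU than with LPS. The part of these cell types in the changes below was not tested.

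**Figure D1:**
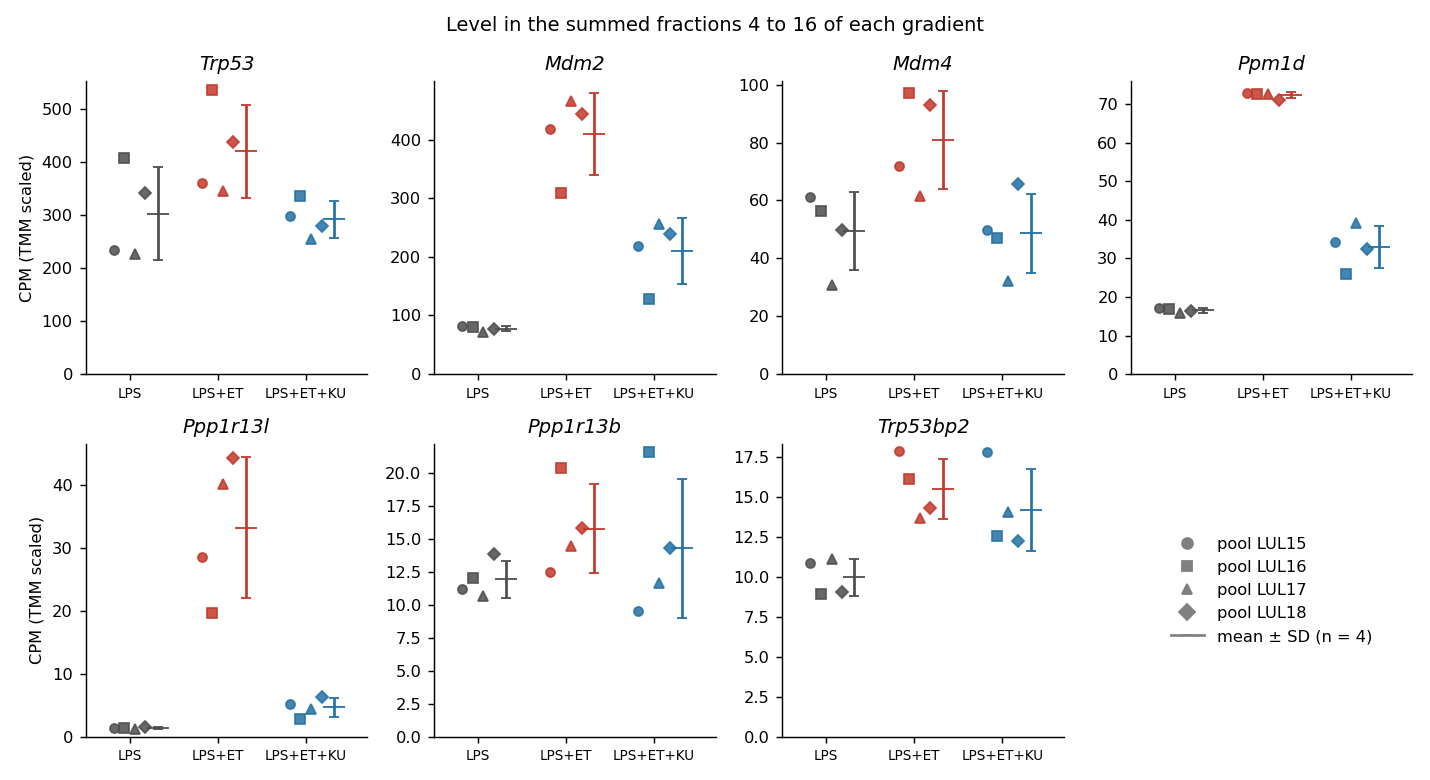
Level of each of the 7 genes in CPM (y axis, linear, starting at 0, own range per panel) in every gradient, by treatment (x axis). Points are single gradients, with mean and SD over 4 gradients. Mdm2, Ppm1d and Ppp1r13l show LPS+ET gradients apart from LPS, with LPS+ET+KU gradients between them, whereas the Trp53 groups of LPS and LPS+ET overlap.

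The level of Trp53 in pools LUL15, LUL16, LUL17 and LUL18 was 233, 408, 226 and 342 CPM with LPS, 360, 536, 345 and 438 with LPS+ET, and 297, 336, 255 and 278 with LPS+ET+KU. Pool LUL16 was the highest under every treatment, and the LPS and LPS+ET groups overlapped, while all LPS+ET+KU gradients lay below all LPS+ET gradients. The log2 difference was 0.47 ± 0.22 (SE, n = 4 gradients per group, edgeR adjusted p = 0.148) for LPS+ET against LPS and -0.53 ± 0.22 (edgeR adjusted p = 0.258) for LPS+ET+KU against LPS+ET. Within the 4 pools the log2 difference of LPS+ET from LPS was 0.63, 0.40, 0.61 and 0.36, so that it was positive in 4 of 4 pools, and with the pool as a replicate block the edgeR adjusted p was 0.0115. Between LPS+ET+KU and LPS the log2 difference was -0.05 ± 0.22 (edgeR adjusted p = 0.89), and its sign varied between pools, from -0.30 to 0.35. Summed counts weight each fraction by its library depth. With equal weight per fraction the Trp53 differences of LPS+ET+KU from LPS+ET and from LPS were both positive, as given in the last section.

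The level of Mdm2 was 81.8, 80.5, 71.5 and 77.2 CPM with LPS, 419, 309, 467 and 444 with LPS+ET, and 218, 128, 256 and 239 with LPS+ET+KU. No 2 groups overlapped, and pool LUL16 was the lowest in both etoposide groups. The mRNA of this ubiquitin ligase rose by a log2 difference of 2.40 ± 0.22 (edgeR adjusted p = 8.47e-06) with etoposide. ATM inhibition was followed by a log2 difference of -0.96 ± 0.21, which did not pass 0.01 (edgeR adjusted p = 0.0366). It was negative in 4 of 4 pools, from -1.27 to -0.87, and was called with the pool as a replicate block (edgeR adjusted p = 0.00201) and by DESeq2 (adjusted p = 7.44e-04). Against LPS, the LPS+ET+KU cells kept a log2 difference of 1.43 ± 0.22 (edgeR adjusted p = 5.81e-04).

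Mdm4, the partner of Mdm2, was measured at 61.4, 56.5, 30.7 and 49.8 CPM with LPS, 72.0, 97.0, 61.4 and 93.1 with LPS+ET, and 49.7, 46.9, 32.2 and 65.8 with LPS+ET+KU. Every LPS+ET gradient lay above every LPS gradient, with a narrow gap between the lowest LPS+ET and the highest LPS value, which print alike. The log2 difference was 0.70 ± 0.26 (edgeR adjusted p = 0.0648) with etoposide and -0.73 ± 0.26 (edgeR adjusted p = 0.164) after ATM inhibition, and neither was called. Pool LUL17 was the lowest under every treatment, and with the pool as a replicate block both differences were called, with a log2 difference of 0.72 (edgeR adjusted p = 0.00201) and -0.75 (edgeR adjusted p = 0.00572).

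The gradients of Ppm1d lay close together with LPS and with LPS+ET. Its level was 17.2, 16.8, 15.9 and 16.2 CPM with LPS, 72.8, 72.6, 72.7 and 71.1 with LPS+ET, and 34.2, 25.9, 39.1 and 32.4 with LPS+ET+KU, and no 2 groups overlapped. The mRNA of the Wip1 phosphatase rose with etoposide by a log2 difference of 2.13 ± 0.15 (edgeR adjusted p = 1.22e-06). It was lower after ATM inhibition by a log2 difference of -1.14 ± 0.15 (edgeR adjusted p = 0.00179), and this call was lost when the LPS+ET+KU gradient of pool LUL18 was left out (edgeR adjusted p = 0.0116). The call was also lost when only the LPS+ET and LPS+ET+KU gradients were fitted. Against LPS the LPS+ET+KU level remained higher by 0.99 ± 0.15 on the log2 scale (edgeR adjusted p = 5.25e-04).

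Ppp1r13l, the inhibitory ASPP gene, was rarely counted with LPS, at 1.37, 1.42, 1.25 and 1.57 CPM from 11 to 25 counts per gradient. With LPS+ET it reached 28.5, 19.7, 40.2 and 44.3 CPM, and with LPS+ET+KU 5.23, 2.77, 4.43 and 6.31 CPM. No 2 groups overlapped, and pool LUL16 was the lowest in both etoposide groups. The log2 difference was 4.55 ± 0.33 (edgeR adjusted p = 1.23e-06) with etoposide, -2.84 ± 0.29 (edgeR adjusted p = 8.7e-04) between LPS+ET+KU and LPS+ET, and 1.72 ± 0.31 (edgeR adjusted p = 0.00194) between LPS+ET+KU and LPS. Each of these kept its sign in 4 of 4 pools, from 3.80 to 5.01, from -3.18 to -2.44 and from 0.96 to 2.00. The call between LPS+ET+KU and LPS+ET was lost when only the gradients of these groups were fitted.

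No change in the level of the activating ASPP genes was called. Ppp1r13b was measured at 11.2, 12.0, 10.6 and 13.8 CPM with LPS, 12.5, 20.3, 14.4 and 15.8 with LPS+ET, and 9.56, 21.6, 11.6 and 14.3 with LPS+ET+KU. All groups overlapped, and the log2 difference with etoposide was 0.40 ± 0.25 (edgeR adjusted p = 0.283). Trp53bp2 was measured at 10.9, 8.92, 11.1 and 9.03 CPM with LPS, 17.9, 16.1, 13.7 and 14.3 with LPS+ET, and 17.8, 12.6, 14.0 and 12.2 with LPS+ET+KU. Both etoposide groups lay above all LPS gradients, but the log2 differences of 0.64 ± 0.18 (edgeR adjusted p = 0.0198) for LPS+ET and 0.50 ± 0.18 (edgeR adjusted p = 0.0551) for LPS+ET+KU did not pass 0.01. For LPS+ET against LPS, Trp53bp2 was called with the pool as a replicate block (edgeR adjusted p = 0.00269) and by DESeq2 (adjusted p = 0.00769). Between LPS+ET+KU and LPS+ET the log2 difference was -0.13 ± 0.18 for Trp53bp2 and -0.13 ± 0.24 for Ppp1r13b.

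Counted by overlap alone, 5 of 7 genes had all LPS+ET gradients above all LPS gradients (Mdm2, Mdm4, Ppm1d, Ppp1r13l and Trp53bp2), where 14.8% of all genes did. Trp53, Mdm2, Ppm1d and Ppp1r13l had all LPS+ET+KU gradients below all LPS+ET gradients, where 4.74% of all genes did. For Trp53 the sign of this difference turned with equal weight per fraction. Mdm2, Ppm1d, Ppp1r13l and Trp53bp2 had all LPS+ET+KU gradients above all LPS gradients, where 14.4% of all genes did.

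The 3 ribosome classes were then tested separately, each normalised to its own libraries, so that a level is relative to the other mRNAs in the same class. Mdm2 and Ppm1d rose with etoposide in monosomes, light and heavy polysomes alike. Ppp1r13l was also called in each class, but it held 1 to 4 counts per LPS gradient on monosomes and 1 to 10 on light polysomes. In these 2 classes it passed the filter on low counts through its LPS+ET counts, so that its calls there are description only. Mdm4 rose on monosomes, whereas its mean on heavy polysomes was 43.5 CPM with LPS and 43.7 with LPS+ET. Trp53 was called in no class. With etoposide 4 of 7 genes were called on monosomes (9.52% of 8932 genes), 3 of 7 on light polysomes (10.6% of 9922) and 3 of 7 on heavy polysomes (9.69% of 11368). The counts on monosomes and light polysomes include Ppp1r13l, whose calls there are description only.

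**Figure D2:**
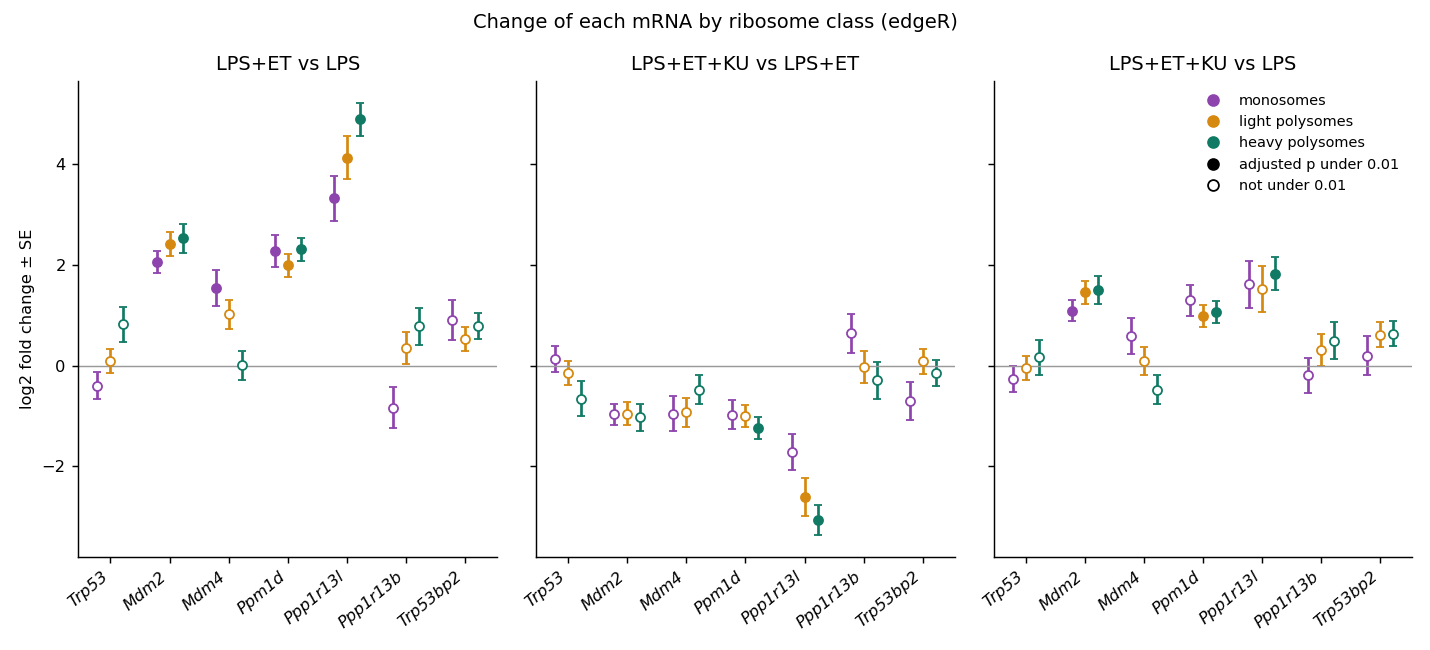
Log2 difference (y axis) with its SE for each of the 7 genes in monosomes, light polysomes and heavy polysomes, for the 3 comparisons, where filled symbols have an edgeR adjusted p under 0.01. Mdm2, Ppm1d and Ppp1r13l are filled in all 3 classes for LPS+ET against LPS, and Mdm4 falls from 1.54 on monosomes to 0.01 on heavy polysomes. The calls of Ppp1r13l on monosomes and light polysomes are description only.

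On monosomes Mdm4 was at 32.7, 43.5, 11.6 and 36.8 CPM with LPS, 100, 116, 55.0 and 98.4 with LPS+ET, and 54.1, 50.0, 23.9 and 63.9 with LPS+ET+KU, in the pool order given above. The LPS+ET gradients all lay above the LPS gradients (13.2% of all genes did so on monosomes), and pool LUL17 was again the lowest under every treatment. The log2 difference was 1.54 ± 0.37 (edgeR adjusted p = 0.00874). The call was close to the threshold: it was lost in 7 of the 8 fits that left out 1 gradient, with edgeR adjusted p up to 0.0288, while the difference stayed between 1.29 and 1.72. With the pool as a replicate block the edgeR adjusted p was 1.89e-07.

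On light polysomes Mdm4 was at 91.2, 60.01, 49.7 and 107 CPM with LPS and 131, 125, 143 and 226 with LPS+ET, and these groups did not overlap. The log2 difference of 1.02 ± 0.28 was not called (edgeR adjusted p = 0.0208) without the pool and was called with it as a replicate block (edgeR adjusted p = 5.68e-05) and by DESeq2 (adjusted p = 0.00448). With LPS+ET+KU the light polysome level was 73.2, 66.7, 72.7 and 117.03 CPM, below every LPS+ET gradient, and the log2 difference from LPS+ET of -0.92 ± 0.28 (edgeR adjusted p = 0.128) was called only with the replicate block (edgeR adjusted p = 9.58e-04).

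On heavy polysomes Mdm4 was at 52.6, 56.3, 29.3 and 35.8 CPM with LPS, 46.6, 36.04, 40.8 and 51.2 with LPS+ET, and 32.1, 19.2, 27.2 and 47.2 with LPS+ET+KU. All 3 groups overlapped. The log2 difference with etoposide was 0.01 ± 0.29 (edgeR adjusted p = 0.989), and its sign varied with the fit, from -0.15 to 0.15 over the fits that left out 1 gradient.

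For Trp53 the differences between classes ran the other way. Its monosome level was 89.2, 151, 70.1 and 130 CPM with LPS and 65.2, 107, 59.9 and 103 with LPS+ET, lower in 4 of 4 pools, while the groups overlapped (log2 difference -0.39 ± 0.26, edgeR adjusted p = 0.325). Its heavy polysome level was 327, 581, 324 and 453 CPM with LPS, 512, 1392, 471 and 608 with LPS+ET, and 518, 609, 355 and 409 with LPS+ET+KU. The value of 1392 belongs to pool LUL16, whose heavy fractions were shallow. The log2 difference on heavy polysomes was 0.82 ± 0.35 (edgeR adjusted p = 0.116) with that gradient and 0.33 (edgeR adjusted p = 0.39) without it, and it was 0.94 (edgeR adjusted p = 0.103) when all libraries under 100000 counts were left out. On light polysomes the levels were 130, 243, 139 and 197 CPM with LPS and 185, 252, 139 and 184 with LPS+ET, with a log2 difference of 0.10 ± 0.24 (edgeR adjusted p = 0.822).

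Mdm2 on heavy polysomes was at 84.2, 76.3, 66.7 and 66.2 CPM with LPS, 431, 311, 491 and 464 with LPS+ET, and 212, 108, 270 and 242 with LPS+ET+KU, and no 2 groups overlapped. The log2 difference with etoposide was 2.06 ± 0.21 on monosomes (edgeR adjusted p = 2.84e-05), 2.41 ± 0.24 on light polysomes (edgeR adjusted p = 1.26e-05) and 2.53 ± 0.28 on heavy polysomes (edgeR adjusted p = 3.26e-05). For LPS+ET+KU against LPS+ET it was -0.96, -0.96 and -1.03 in the same order, with edgeR adjusted p of 0.0363, 0.051 and 0.0681, and each was called with the pool as a replicate block, where adjusted p was 3.54e-05, 5.09e-04 and 0.00798.

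Ppm1d on heavy polysomes was at 18.9, 20.8, 21.4 and 19.2 CPM with LPS, 84.9, 144, 86.2 and 84.7 with LPS+ET, and 45.3, 37.96, 45.8 and 39.3 with LPS+ET+KU. Again the gradient of pool LUL16 was the high one among LPS+ET. The log2 difference with etoposide was 2.31 ± 0.22 (edgeR adjusted p = 9.23e-06), and 2.08 without that gradient (edgeR adjusted p = 3.17e-06). After ATM inhibition it was -1.24 ± 0.22 (edgeR adjusted p = 0.00904). This call was lost in 7 of the 8 fits that left out 1 gradient, with adjusted p up to 0.0388, and held without the pool LUL16 gradient of LPS+ET (log2 difference -1.02, edgeR adjusted p = 0.00442). On monosomes Ppm1d was at 12.8, 7.30, 5.78 and 5.91 CPM with LPS and 52.1, 32.2, 30.4 and 41.3 with LPS+ET, a log2 difference of 2.28 ± 0.32 (edgeR adjusted p = 2.17e-04).

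Ppp1r13l on heavy polysomes was at 1.17, 1.42, 1.83 and 1.88 CPM with LPS, 35.6, 45.3, 51.0 and 55.5 with LPS+ET, and 7.30, 3.03, 4.79 and 7.48 with LPS+ET+KU. The log2 difference was 4.89 ± 0.33 (edgeR adjusted p = 8.27e-07) with etoposide and -3.07 ± 0.29 (edgeR adjusted p = 2.32e-04) between LPS+ET+KU and LPS+ET. On monosomes the LPS gradients held 1 to 4 counts of this gene each, and no fold is given there. On light polysomes the fall between LPS+ET+KU and LPS+ET had a log2 difference of -2.61 ± 0.38 (edgeR adjusted p = 0.00652), and this call was lost in 7 of the 8 fits that left out 1 gradient, with adjusted p up to 0.0331. The LPS+ET+KU gradients held 10 to 19 counts there. The gene passed the filter on light polysomes through its LPS+ET counts, so that this call is description only.

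For LPS+ET+KU against LPS+ET, edgeR called 0 of 7 genes on monosomes (0.213% of all genes were called), where 4 of 7 had an unadjusted p under 0.05 (13.5% of all genes), DESeq2 called 2 (1.22%) and the fit with the replicate block 4 (5.62%). It called 1 of 7 on light polysomes (0.292% of all genes) and 2 of 7 on heavy polysomes (0.572%). The gene called on light polysomes was Ppp1r13l, whose values on monosomes and light polysomes are description only. For LPS+ET+KU against LPS, 1 of 7 was called on monosomes (5.96%), 2 of 7 on light polysomes (7.13%) and 3 of 7 on heavy polysomes (7.95%). Of these calls against LPS, that of Mdm2 on monosomes was lost in 5 of the 8 fits that left out 1 gradient, and that of Ppm1d in 7 of 8 on light and 6 of 8 on heavy polysomes. With the pool as a replicate block, the 4 genes called on monosomes between LPS+ET+KU and LPS+ET, and again between LPS+ET+KU and LPS, were Mdm2, Mdm4, Ppm1d and Ppp1r13l. For Mdm4 on monosomes the blocked log2 difference was -0.97 (edgeR adjusted p = 2.16e-04) from LPS+ET and 0.62 (edgeR adjusted p = 0.00476) from LPS, and for Ppm1d -0.98 (edgeR adjusted p = 0.00189) and 1.28 (edgeR adjusted p = 1.85e-04). On light polysomes the block also brought a call of Ppm1d between LPS+ET+KU and LPS+ET (log2 difference -1.03, edgeR adjusted p = 0.00138). With the block the share of all genes called on monosomes was 24.6% for LPS+ET against LPS and 23.2% for LPS+ET+KU against LPS. It was 25%, 5.35% and 24.1% on light polysomes and 20.6%, 3.27% and 21.4% on heavy polysomes for LPS+ET against LPS, LPS+ET+KU against LPS+ET and LPS+ET+KU against LPS.

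By overlap alone, on monosomes the LPS+ET gradients of Mdm2, Mdm4, Ppm1d and Ppp1r13l all lay above LPS (13.2% of all genes), the LPS+ET+KU gradients of Mdm2, Ppm1d and Ppp1r13l below LPS+ET (4%) and those of Mdm2 and Ppp1r13l above LPS (11.5%). On light polysomes 6 of 7 genes, the exception being Trp53, had LPS+ET above LPS (13.4%), Mdm2, Mdm4, Ppm1d and Ppp1r13l had LPS+ET+KU below LPS+ET (4.64%), and Mdm2, Ppm1d, Ppp1r13l and Trp53bp2 had LPS+ET+KU above LPS (10.7%). On heavy polysomes Mdm2, Ppm1d and Ppp1r13l had LPS+ET above LPS (12.1%) and LPS+ET+KU below LPS+ET (3.91%), and these 3 and Trp53bp2 had LPS+ET+KU above LPS (13.2%). The place of Ppp1r13l on monosomes and light polysomes is description only, as it passed the filter there through its LPS+ET counts.

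Ppp1r13b was at 3.07 to 4.80 CPM on monosomes with LPS+ET, from 5 to 7 counts per gradient, against 6.50 to 7.59 CPM with LPS, and these groups did not overlap (10.6% of all genes were lower in this way). On heavy polysomes it was at 13.4, 14.7, 14.6 and 17.6 CPM with LPS and 15.6, 53.5, 17.9 and 20.4 with LPS+ET, with pool LUL16 far above the others. Trp53bp2 was at 14.3, 10.9, 15.3 and 10.5 CPM on heavy polysomes with LPS, 22.8, 32.8, 15.0 and 18.6 with LPS+ET, and 23.4, 20.6, 18.8 and 16.5 with LPS+ET+KU.

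The position of each mRNA in the gradient was next described by its share on heavy polysomes. Equal RNA concentrations went into the libraries of all fractions, so that library depth does not follow the RNA of a fraction. The share was therefore computed both from the counts as deposited and after every fraction library was scaled to CPM, and neither is an absolute share of molecules. Trp53 mRNA sat far down the gradient in all groups: its scaled heavy share was 68.9% ± 1.37 with LPS, 77.5% ± 3.95 with LPS+ET and 77.2% ± 3.36 with LPS+ET+KU (SD, n = 4 each). With LPS+ET, 96.2% of 8000 genes had a lower share, against 80.9% with LPS. For Mdm4 it was 44.4% ± 6.16 with LPS, 26.4% ± 3.22 with LPS+ET and 28.4% ± 5.67 with LPS+ET+KU, and 28.9%, 7.56% and 9.39% of genes had a lower share. The median scaled share over all 8000 genes was 55.2%, 53.9% and 54.7%.

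**Figure D3:**
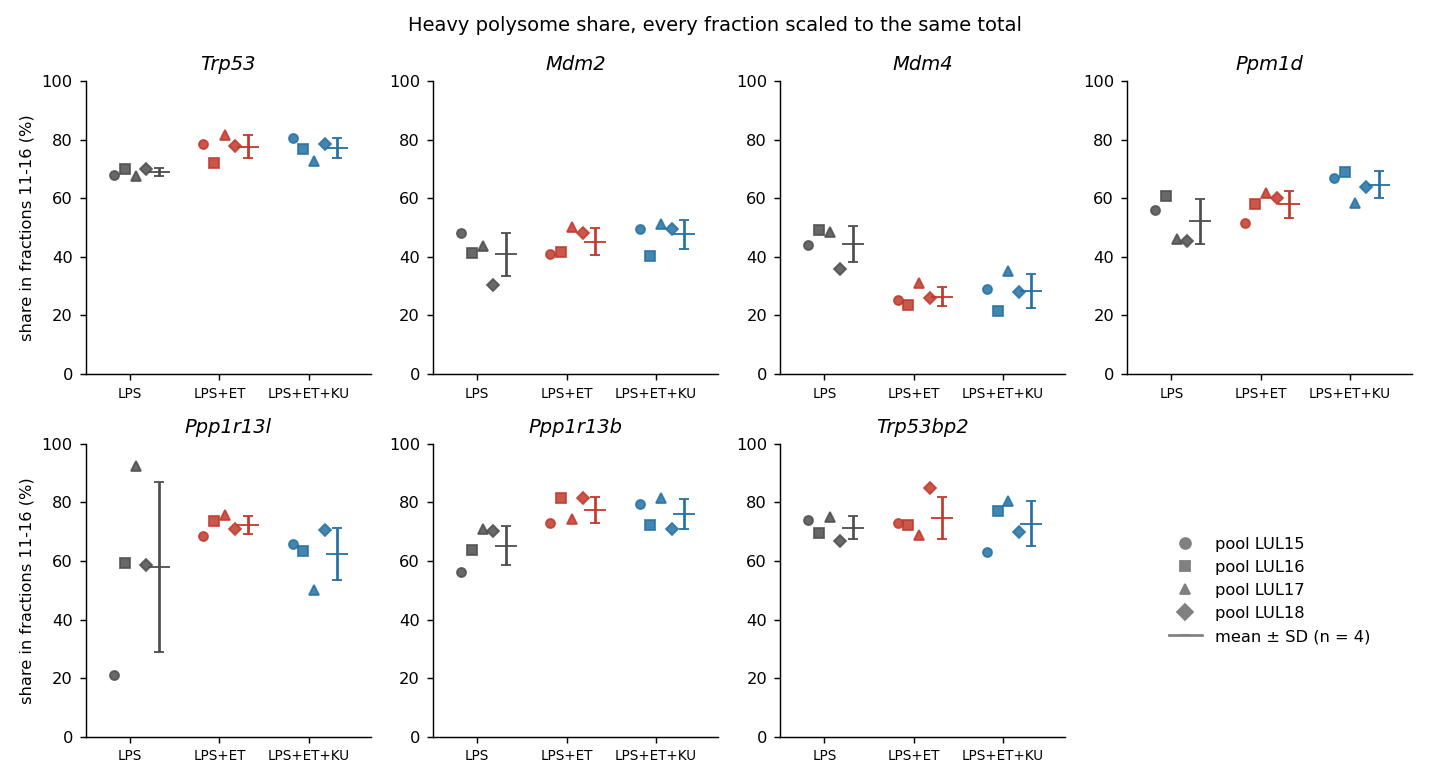
Scaled share of each gene's signal on heavy polysomes in percent (y axis) by treatment (x axis), with 1 symbol shape per library pool and bars for mean and SD (n = 4). All LPS+ET gradients of Mdm4, 23.5 to 31.01%, lie below all LPS gradients, 35.8 to 49.3%, and all LPS+ET gradients of Trp53, 72.1 to 81.6%, lie above all LPS gradients, 67.6 to 70.1%. The LPS+ET gradients of Ppp1r13b also lie above its LPS gradients, and how many of all genes lie apart was not counted.

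The scaled heavy share of Trp53 was 67.8, 70.1, 67.6 and 70.0% with LPS, 78.5, 72.1, 81.6 and 77.9% with LPS+ET, and 80.6, 76.8, 72.7 and 78.6% with LPS+ET+KU. Both etoposide groups lay above the LPS group without overlap and overlapped each other. How many of all genes lie apart in this way was not counted. Ppp1r13b also had its LPS+ET gradients, 73.1 to 81.4%, above its LPS gradients, 56.3 to 70.9%. Its difference in natural log odds was 0.61 (limma adjusted p = 0.0845). For Trp53 the difference in natural log odds was 0.45 ± 0.14 (limma adjusted p = 0.0834) for LPS+ET and 0.43 (limma adjusted p = 0.0856) for LPS+ET+KU against LPS, and neither was called. Without the pool LUL16 gradient of LPS+ET it was 0.55 (limma adjusted p = 0.0482). From the counts as deposited the mean heavy share of Trp53 was 78.2% with LPS, 84.5% with LPS+ET and 76.6% with LPS+ET+KU, so that the order of LPS and LPS+ET+KU depended on the scaling.

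For Mdm4 the scaled heavy share was 44.1, 49.3, 48.4 and 35.8% with LPS, 25.4, 23.5, 31.01 and 25.9% with LPS+ET, and 29.1, 21.4, 35.2 and 27.9% with LPS+ET+KU. The difference in natural log odds was -0.80 ± 0.18 (limma adjusted p = 0.0309) for LPS+ET and -0.71 ± 0.18 (limma adjusted p = 0.0398) for LPS+ET+KU against LPS. Neither passed 0.01, with or without the replicate block (limma adjusted p = 0.023 and 0.027 with it). Between LPS+ET+KU and LPS+ET the difference was 0.09 (limma adjusted p = 0.932). As deposited, the mean heavy share of Mdm4 was 49.2% with LPS, 32.1% with LPS+ET and 33.02% with LPS+ET+KU, the same order as after scaling.

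For Mdm2 and Ppm1d no difference in position was called. The scaled heavy share of Mdm2 was 40.9% ± 7.43 with LPS, 45.2% ± 4.65 with LPS+ET and 47.7% ± 5.04 with LPS+ET+KU, the lowest mean of the 7 genes with LPS, and 23.5%, 30.9% and 34.9% of genes had a lower share. For Ppm1d it was 52.1% ± 7.56, 57.9% ± 4.60 and 64.6% ± 4.62 in the same order, and 43.5%, 60.2% and 73.5% of genes had a lower share. The difference in log odds of Ppm1d between LPS+ET+KU and LPS was 0.52 ± 0.17 (limma adjusted p = 0.0938). As deposited, the mean share of Mdm2 and Ppm1d was lowest with LPS+ET+KU, at 47.8% and 62.0%, so that the order of the groups depended on the scaling. The activating ASPP mRNAs were heavy, with Ppp1r13b at 65.2% ± 6.77, 77.5% ± 4.43 and 76.0% ± 5.21 and Trp53bp2 at 71.4% ± 3.82, 74.7% ± 7.10 and 72.7% ± 7.72. Ppp1r13l at LPS had a spread too wide to place it (58.0% ± 29.2), and it was at 72.2% ± 3.08 with LPS+ET.

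With limma, 0 of 7 genes were called on the scaled share in any comparison, where 0.325% of 8000 genes were called for LPS+ET against LPS, 0% for LPS+ET+KU against LPS+ET and 0.775% for LPS+ET+KU against LPS. At an unadjusted p under 0.05 there were 3, 0 and 4 of the 7 genes, where 20.7%, 8.61% and 21% of all genes were. On the share as deposited, limma called 0 of 8000 genes in each comparison, and 0, 1 and 0 of the 7 genes had an unadjusted p under 0.05, where 1.92%, 3.96% and 10.3% of all genes did. That 1 gene was Ppp1r13l, which met the minimum mean count of the share test through its LPS+ET counts. It held 126 to 526 counts per gradient with LPS+ET, 11 to 25 with LPS and 52 to 82 with LPS+ET+KU, so that its place here is description only.

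**Figure D4:**
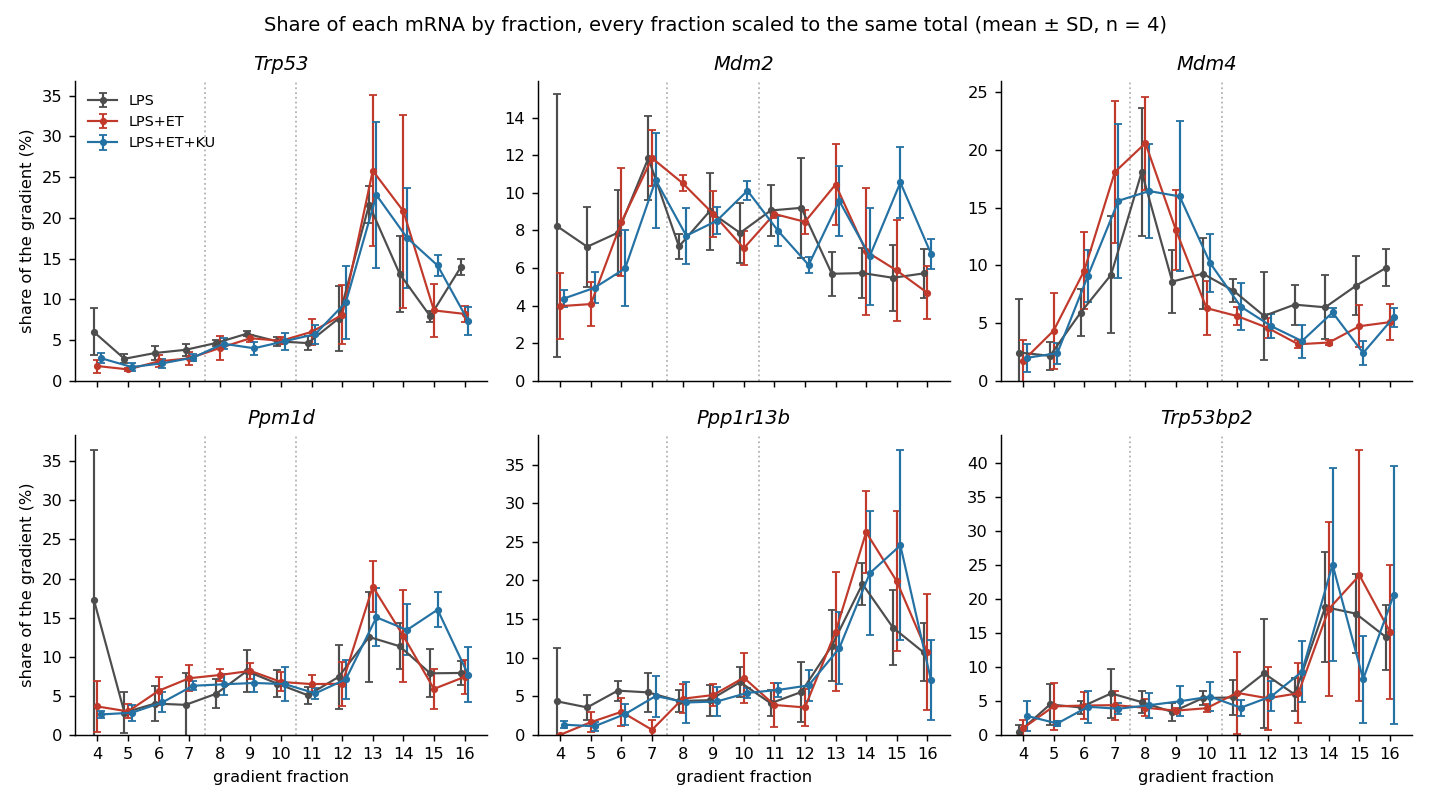
Scaled share of signal in each fraction (y axis, percent of the gene's summed CPM) along fractions 4 to 16 (x axis) for 6 of the genes, as means with SD over 4 gradients per treatment (error bars end at 0). Trp53 peaks at fraction 13 in all treatments, at 21.6% with LPS and 25.8% with LPS+ET, whereas Mdm4 peaks at fraction 8, at 18.1% and 20.6%.

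Fraction by fraction, the mean scaled share of Mdm4 in fraction 7, the last monosome fraction, was 9.18% with LPS, 18.1% with LPS+ET and 15.6% with LPS+ET+KU, and in fraction 13 it was 6.59%, 3.16% and 3.44%. Its mean CPM in fraction 7 was 54.5, 198 and 100, and in fraction 13 it was 36.2, 34.1 and 21.3. These CPM are relative to the other mRNAs of the same fraction, so that they do not place added mRNA molecules along the gradient. The mean scaled share of Trp53 in fraction 14 was 13.1% with LPS, 20.8% with LPS+ET and 17.6% with LPS+ET+KU. In fraction 4 its share was 5.99%, 1.80% and 2.76%, and 3 of the 4 LPS libraries of fraction 4 held under 100000 counts. The mean fraction, weighted by the scaled share, was 11.71 ± 0.158 for Trp53 with LPS, 12.27 ± 0.457 with LPS+ET and 12.23 ± 0.099 with LPS+ET+KU. For Mdm4 it was 10.43 ± 0.492, 9.13 ± 0.495 and 9.39 ± 0.475. Mdm2 had a mean share in fraction 7 of 11.8%, 11.9% and 10.7%, while its mean CPM there was 119, 590 and 280.

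A test of the whole profile, in which treatment and its interaction with the fraction were set against the fraction alone, called 5 of 7 genes for LPS+ET against LPS (31% of 10360 genes), 4 of 7 for LPS+ET+KU against LPS+ET (8.01% of 10472) and 4 of 7 for LPS+ET+KU against LPS (32.7% of 10306). This test treats the fractions of 1 gradient as separate libraries, and it responds to level and to shape. Mdm2, Mdm4, Ppm1d and Ppp1r13l were called in all 3 comparisons, with edgeR adjusted p for Mdm4 of 1.3e-07, 2.92e-06 and 0.00311. The last of these was lost in 4 of the 8 fits without 1 gradient (adjusted p up to 0.0307), and the other calls of these 4 genes held in all 8. Ppp1r13l held only 11 to 25 counts over all fractions of an LPS gradient and 52 to 82 of an LPS+ET+KU gradient. Its profile calls are therefore description only. Trp53bp2 was called for LPS+ET against LPS (edgeR adjusted p = 0.00425), a call that was lost in 5 of the 8 fits without 1 gradient (adjusted p up to 0.0509). Trp53 was not called (edgeR adjusted p = 0.162, 0.84 and 0.133), and was called with the pool as a replicate block for LPS+ET against LPS (0.00416) and for LPS+ET+KU against LPS (0.00323). The block also brought calls of Ppp1r13b for LPS+ET against LPS (edgeR adjusted p = 0.00538, and 0.0128 without it) and of Trp53bp2 for LPS+ET+KU against LPS (0.0018, and 0.0124 without it). With the block 7, 4 and 6 of the 7 genes were called, where 41.7%, 18.3% and 47% of all genes were.

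The interaction tested alone, which asks only whether the shape of the profile differs, called 0 of 7 genes in each comparison with edgeR, where 1.37%, 1.05% and 3.29% of all genes were called. At an unadjusted p under 0.05 there were 2, 0 and 1 of the 7, and 13.3%, 9.2% and 17.6% of all genes. For Mdm4 its adjusted p was 0.0322, 0.561 and 0.0136. With 1 term for each gradient, which removes differences in level between gradients, Mdm4 was called for LPS+ET against LPS (edgeR adjusted p = 1.2e-04) and for LPS+ET+KU against LPS (1.5e-04). Trp53 was called for LPS+ET+KU against LPS (0.00594) and had an adjusted p of 0.0203 for LPS+ET against LPS. This fit called 5.72% of all genes for LPS+ET against LPS, 3.63% for LPS+ET+KU against LPS+ET and 11% for LPS+ET+KU against LPS. Both interaction tests also treat the fractions of 1 gradient as separate libraries, so that their p-values do not measure the spread between gradients.

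Other genes of the p53 pathway were read from fixed lists in the summed counts. Of 20 p53 target genes, 17 rose with etoposide and 0 fell, where 12.7% of all genes were called in either direction. The median log2 difference was 2.55 against 0.03 over all genes, and 19 targets rose with the replicate block (26.7% of all genes were called). Among them were Cdkn1a, the inhibitor of cyclin-dependent kinases, with a log2 difference of 4.64, and Phlda3, an inhibitor of Akt, with 5.29. With LPS+ET+KU 13 of the 20 were above LPS (10.7% of all genes were called), with a median of 1.94, Phlda3 at 5.00 and Cdkn1a at 4.51. With the block 17 were called (28.1% of all genes) and by DESeq2 15 (18.2%). Between LPS+ET+KU and LPS+ET, edgeR called 0 of the 20 targets (0.455% of all genes), and 7 were lower at an unadjusted p under 0.05 (15.9% of all genes had one). DESeq2 called 2 lower (3.24% of all genes were called) and the fit with the replicate block 5 (6.36%). The log2 differences of the 20 targets ran from -2.13 to 0.28 with a median of -0.34 against 0.04 over all genes, and the differences of Mdm2 and Ppm1d given above lay within that range.

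The enzymes that act on p53 or Mdm2 were read from 3 lists. With etoposide 5 of the 39 genes tested on them were called, 12.8% and so near the 12.7% of all genes, and 15 with the replicate block, 38.5% beside 26.7%. For LPS+ET+KU against LPS they were 8 (20.5% beside 10.7%) and 17 with the block (43.6% beside 28.1%). Of 14 kinases and phosphatases tested, 1 rose with etoposide, the checkpoint kinase gene Chek2 with a log2 difference of 1.64, and 3 fell, among them Atm with -0.98 and Prkdc, the catalytic subunit of DNA-PK, with -0.79. Of 14 other ubiquitin ligases and deubiquitinases of p53, edgeR called 0 with etoposide, and 1 was higher and 5 lower at an unadjusted p under 0.05 (34.4% of all genes had one), while DESeq2 called 1 higher and 4 lower and the fit with the block 1 higher and 5 lower. With the block 1 kinase gene was called higher and 4 lower, and of the acetylation list 1 higher and 3 lower. In LPS+ET+KU against LPS, 1 of them was higher (Cul9, 1.17) and 3 were lower, among them the ligase genes Huwe1 with -1.28 and Rfwd2 with -0.63, and with the block 2 were higher and 6 lower. Of 11 acetylation and methylation enzymes tested, 1 fell with etoposide (Setd8, -0.94), and with LPS+ET+KU the deacetylase gene Sirt1 was higher (1.04) and 2 were lower than with LPS.

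Of 12 RNA-binding and translation regulators of Trp53 mRNA, 1 rose with etoposide, Zmat3 with 3.31, and 1 fell, Syncrip with -1.14. With LPS+ET+KU against LPS, Zmat3 was higher and Syncrip, Sfpq and Elavl1 were lower, with log2 differences of 2.76, -1.48, -1.76 and -1.13. Zmat3 and Trp53inp1 are also p53 targets and stand on that list too. Of 8 Arf and nucleolar regulators of Mdm2, 1 rose with etoposide, Rps27l with 1.17, and of 10 family members and cofactors tested 1 rose, Trp53inp1 with 2.56, which was also higher with LPS+ET+KU (1.98). On these last 3 lists together 4 of 30 genes were called with etoposide, 13.3% beside 12.7% of all genes, and 5 with the block (16.7%), the added gene a cofactor. For LPS+ET+KU against LPS 5 of 30 were called (16.7% beside 10.7%) and 9 with the block (30% beside 28.1%). Between LPS+ET+KU and LPS+ET no gene of these 6 lists was called by edgeR. At an unadjusted p under 0.05 the lists of ligases, kinases, acetylation enzymes, nucleolar regulators, RNA regulators and cofactors then held 1, 2, 0, 0, 1 and 0 higher genes and 1, 1, 1, 1, 4 and 2 lower genes, and DESeq2 and the fit with the block each called 1 lower gene in each of the last 3 lists.

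The genes most like each member were found by Pearson's r of log2 CPM over the 12 gradients, among genes with a mean of at least 100 counts per gradient. The gradients share 3 treatments and 4 pools, so that r mostly describes the treatment pattern and carries no test. Mdm2 was closest to Ikbke (0.996), Hic1 (0.995) and Tubb6 (0.994), and Ppm1d to Cers4 (0.987), Trim32 (0.986) and Man2b1 (0.980). Ppp1r13l was closest to Arhgap23 (0.982), Trp53 to G6pdx (0.923) and Mdm4 to Ehd4 (0.903). Ppp1r13b was closest to Cdc7 (0.952) and Trp53bp2 to Dpy19l4 (0.968). Among the members r was 0.977 for Mdm2 and Ppm1d, 0.969 for Ppm1d and Ppp1r13l, 0.952 for Mdm2 and Ppp1r13l, 0.768 for Trp53 and Mdm4 and 0.539 for Trp53 and Mdm2.

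Over the 39 means of treatment and fraction, which also carry the shape of the gradient, the order changed. Trp53 was closest to Ciao1 (0.969), Atp6v1b2 (0.962) and Map2k1 (0.961), and Mdm4 to Rc3h2 (0.901). Here r of Trp53 was 0.728 with Ppp1r13b, 0.708 with Ppm1d and -0.287 with Mdm4, so that Trp53 and Mdm4, alike in level over the gradients, lay in different fractions.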

How the data were processed

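The deposited values are 3′-end read counts per gene in single gradient fractions. The authors reverse transcribed equal RNA concentrations from all fractions, removed duplicates by random bases, mapped the reads to GRCm38 and made the counts per Ensembl gene at polyadenylation sites (TopHat2 2.0.12 and HTSeq in the submitters' processing notes). Gradients were set by treatment and the library pool in the column headers. A fraction 17 library with 777 counts was left out. The study states biological replicates, and p-values of the level, class and share tests measure the spread between gradients. Those of the profile and interaction tests rest on single-fraction libraries taken as separate, and do not measure that spread.

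Summed counts were tested with edgeR 4.0.16 in R 4.3.3 (TMM, filterByExpr, quasi-likelihood F-test, treatment as the only term, 12 gradients in 1 fit, Benjamini-Hochberg over all genes tested), and CPM are TMM-scaled. Shares were tested with limma 3.58.1 on log odds with 0.5 added, where a gene averaged at least 100 counts. Alternatives were DESeq2 1.42.0, other filters and scalings, a replicate block and each gradient left out, and, chosen after seeing the data, the omission of libraries under 100000 counts. The edgeR test of summed counts, the limma share test and the profile and interaction tests were tried on simulated data first, for LPS+ET against LPS. The simulation did not cover DESeq2, the replicate block, the term per gradient, the separate classes or equal weight per fraction.

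Deviations from treatment means correlated at 0.358 to 0.888 for the 12 pairs of gradients within a pool and at -0.665 to 0.382 for the 36 others (8896 genes). The pools were therefore taken to pair the gradients, from headers and data, with no statement on animals or days. Blocked values stand beside results that they change. The 7 genes are named throughout, and up to 4 called genes with the smallest adjusted p per pathway list and comparison. Members and lists were chosen with earlier results of these data known.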

Additional observations from a re-analysis of the deposited data

Results flagged for a closer look

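With 4 gradients per group, 9 of 105 groups held 1 gradient far from the other 3 (a gap beyond Dixon's 95% limit for 4 values), where chance marks about 1 in 20. On heavy polysomes the LPS+ET gradient of pool LUL16 was the high one for Trp53 (1392.3 CPM, next 608.34), Ppm1d (144.15, next 86.167) and Ppp1r13b (53.51, next 20.352), and 4 of its 6 heavy libraries held under 100000 counts. Without it the log2 difference of Trp53 on heavy polysomes fell from 0.82 to 0.33. The LPS+ET+KU gradient of pool LUL16 was low for Mdm2 on monosomes (117.93 CPM, next 200.35) and for the scaled heavy share of Mdm2 (40.2049%, next 49.5015%). The LPS+ET+KU gradient of pool LUL18 was high for Mdm4 on light polysomes (117.03 CPM, next 73.156), and that of pool LUL15 low for Trp53 on monosomes (71.614 CPM, next 97.363). The LPS gradient of pool LUL18 was high for Mdm2 on monosomes (97.795 CPM, next 82.341). The LPS+ET gradient of pool LUL18 was low for Ppm1d over all fractions (71.134 CPM, next 72.621), in a group whose SD was 0.794.

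The shape of the profile differed between treatments in the interaction test with 1 term per gradient for Mdm4 in LPS+ET against LPS (edgeR adjusted p = 0.00012), for Mdm4 in LPS+ET+KU against LPS (0.00015) and for Trp53 in LPS+ET+KU against LPS (0.00594). The same test without the gradient terms called none of the 7 genes. Both tests treat the fractions of 1 gradient as separate libraries.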

How the results depend on the processing

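Of the 7 genes, the number called in summed counts was 3 for LPS+ET against LPS and 5 with the replicate block. For LPS+ET+KU against LPS+ET it was 2, and 4 with the replicate block, 1 with equal weight per fraction and 1 to 2 without 1 gradient; fitted on only the 8 compared gradients, edgeR called 0 of 12357 genes, with 1603 genes and 5 of the 7 at an unadjusted p under 0.05. On monosomes, 0 called for LPS+ET+KU against LPS+ET became 2 with DESeq2 and 4 with the block, and 1 called against LPS became 2 with DESeq2, 2 with no filter, 4 with the block and 0 to 2 without 1 gradient. On light polysomes, 1 called for LPS+ET+KU against LPS+ET (Ppp1r13l, description only there) became 3 with DESeq2, 4 with the block and 0 to 1 without 1 gradient, and 2 called against LPS became 1 with no filter and 1 to 2 without 1 gradient. On heavy polysomes, 2 called for LPS+ET+KU against LPS+ET became 3 with the block, 1 with no filter, 1 without small libraries and 1 to 2 without 1 gradient, and 3 called against LPS became 1 to 3 without 1 gradient, with 1 without the LPS gradient of pool LUL18. Profile calls of 5, 4 and 4 became 7, 4 and 6 with the block, 4 to 6, 4 and 3 to 5 without 1 gradient, 0, 0 and 0 for the interaction alone and 1, 0 and 2 with 1 term per gradient. The calls of all genes rose from 1618, 58 and 1361 to 2344, 413 and 2319 with DESeq2 and to 3403, 811 and 3589 with the block. The calls of Mdm2, Ppm1d and Ppp1r13l for LPS+ET against LPS in summed counts held in all these fits. Beyond the calls of the 7 genes given with the results, the replicate block changed none of theirs, and its calls on the pathway lists stand with those lists.

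Signs turned only for differences that were not called. With equal weight per fraction Trp53 was at 0.069 and Ppp1r13b at 0.17 for LPS+ET+KU against LPS+ET, and Trp53 at 0.37 and Mdm4 at 0.23 against LPS. Mdm4 on heavy polysomes for LPS+ET against LPS was at -0.083 with no filter, -0.0002 with the block and -0.15 to 0.15 without 1 gradient. Without 1 gradient, summed counts gave -0.40 to 0.026 for Ppp1r13b (LPS+ET+KU against LPS+ET), and against LPS -0.18 to 0.12 for Trp53, -0.21 to 0.12 for Mdm4 and -0.011 to 0.42 for Ppp1r13b. On light polysomes Trp53 ranged from -0.076 to 0.28 (LPS+ET against LPS), -0.28 to 0.016 (LPS+ET+KU against LPS+ET) and -0.17 to 0.13 (against LPS), and Mdm4 from -0.12 to 0.28 (against LPS). For the log odds of the scaled share, Trp53bp2 ranged from -0.0062 to 0.31, -0.25 to 0.094 and -0.051 to 0.24 in the 3 comparisons, Ppp1r13l from -0.42 to 0.69 against LPS, and for LPS+ET+KU against LPS+ET Trp53 from -0.12 to 0.059, Mdm4 from -0.021 to 0.21 and Ppp1r13b from -0.19 to 0.0066. The cause was not tested. Ppp1r13l with LPS and the ASPP genes on monosomes are limited by depth.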
